A study of Mus musculus with 16 samples.

Results

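A set of 10 receptor genes that tune insulin secretion was followed in BetaTC6 cells, which are mouse insulinoma cells of β-cell type on a C57BL/6 background. The 10 were chosen by name as receptors of the β cell outside the purinergic family: Glp1r, Gipr, Gcgr, Ffar1, Gpr119, Chrm3, Adra2a, Sstr3, Casr and Galr1. They are 10 of the 23329 genes in the count table. The libraries formed 4 groups of 4: wild-type cells with vehicle (DMSO), wild-type cells with ivermectin, cells labelled P2ry1 knockout with vehicle, and cells labelled P2ry1 knockout with ivermectin. Ivermectin is an antiparasitic drug, and P2ry1 encodes a purinergic receptor that is activated by ADP. All 4 groups had been grown for 3 days, held in buffer free of glucose, and then given 20 mM glucose for 30 min with drug or vehicle, so no library shows the cells at low glucose. The study asked how mRNA levels respond to ivermectin with and without P2ry1. How the knockout was made, how many clones the line came from and whether replicates were separate cultures are not given in the sources used here. Genotype and line therefore cannot be told apart, and p-values measure the spread between these libraries, which may be technical.

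All 10 receptors are G protein-coupled receptors, which pass a signal from a hormone, transmitter or nutrient to a heterotrimeric G protein inside the cell. Receptors coupled to Gs raise cyclic AMP and amplify glucose-stimulated insulin secretion, those coupled to Gq release calcium and activate protein kinase C, and those coupled to Gi or Go lower cyclic AMP and restrain secretion. In the β cell the incretin hormones GLP-1 and GIP act through the first class, fatty acids and acetylcholine through the second, and noradrenaline, somatostatin and galanin through the third.

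The libraries held 893088 to 2013242 counts, and the 4 smallest were those of wild-type cells with vehicle. The targeted gene was not called lower where the label says knockout: P2ry1 was at 94.6 ± 8.57 CPM (counts relative to the library total; SD, n = 4) in wild-type libraries with vehicle and 93.1 ± 7.58 in those with ivermectin, and 84.0 ± 8.98 and 85.5 ± 4.95 in the corresponding knockout-labelled libraries. The log2 differences were -0.17 in vehicle and -0.11 under ivermectin, with adjusted p-values of 0.245 and 0.394 (edgeR, all genes tested). Which part of P2ry1 was altered is not given, so a transcript level need not show it, and these cells are called the line labelled knockout throughout. Of 16 β-cell markers, 16 had counts in every group, and Ins1 and Ins2 together took 2.07% to 2.90% of all counts. Transcripts of other islet hormones were also present: Gcg at 297 ± 26.3 CPM and Sst at 218 ± 15.4 CPM in wild-type vehicle libraries (both SD, n = 4), whereas Ppy never exceeded 3 counts in a library. A list of 22 hepatocyte genes took 0.134% to 0.281% of counts in wild-type vehicle libraries and 0.0812% to 0.118% in the other 12. Within that list Alb was at 579 ± 278 CPM in wild-type vehicle and 38.9 ± 16.1 CPM in knockout-labelled vehicle (SD, n = 4). Replicate 4 of wild-type ivermectin held 2.99% of its counts in the ribosomal gene Rn45s, against 0.139% to 0.601% in the other 15.

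Of the 10 receptors, 7 had enough counts to be tested: Glp1r, Gipr, Ffar1, Chrm3, Adra2a, Sstr3 and Galr1. The other 3, Gcgr, Gpr119 and Casr, were too low to test by edgeR's filter on low counts. Levels of different receptors were compared per transcript length, in TPM, RSEM's measure of a transcript's share of all transcripts. In wild-type vehicle libraries Glp1r, the GLP-1 receptor, was highest at 152 ± 18.7 TPM (SD, n = 4), above 95.7% of the genes in the table. Ffar1, the long-chain fatty acid receptor, followed at 84.8 ± 6.44 TPM and Adra2a, the α2A-adrenergic receptor, at 80.9 ± 3.95 TPM. Their ranges overlapped, so these neighbours in the order did not differ beyond their spread, while Glp1r lay above both. Sstr3, a somatostatin receptor, was at 29.0 ± 4.38 TPM, Galr1, a galanin receptor, at 22.8 ± 2.51 TPM, and Gipr, the GIP receptor, at 15.1 ± 5.43 TPM. Ranges of Sstr3 and Galr1 overlapped, as did those of Galr1 and Gipr. Chrm3, the M3 muscarinic acetylcholine receptor, was at 8.26 ± 2.65 TPM and overlapped Gipr, and Casr, Gcgr and Gpr119 had means of 1.66, 1.37 and 0.392 TPM with overlapping ranges. The incretin receptors thus stood far apart from each other in level, and the restraining receptors Adra2a and Sstr3 lay between them. Among the knockout-labelled vehicle libraries Glp1r was again highest at 120 ± 12.1 TPM, but Adra2a, at 38.6 ± 3.50 TPM, no longer overlapped Ffar1, at 71.5 ± 11.8 TPM. Under ivermectin the same line had ranges of 42.8 to 75.7 TPM for Ffar1 and 33.0 to 45.0 TPM for Adra2a, which overlapped.

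**Figure D1:**
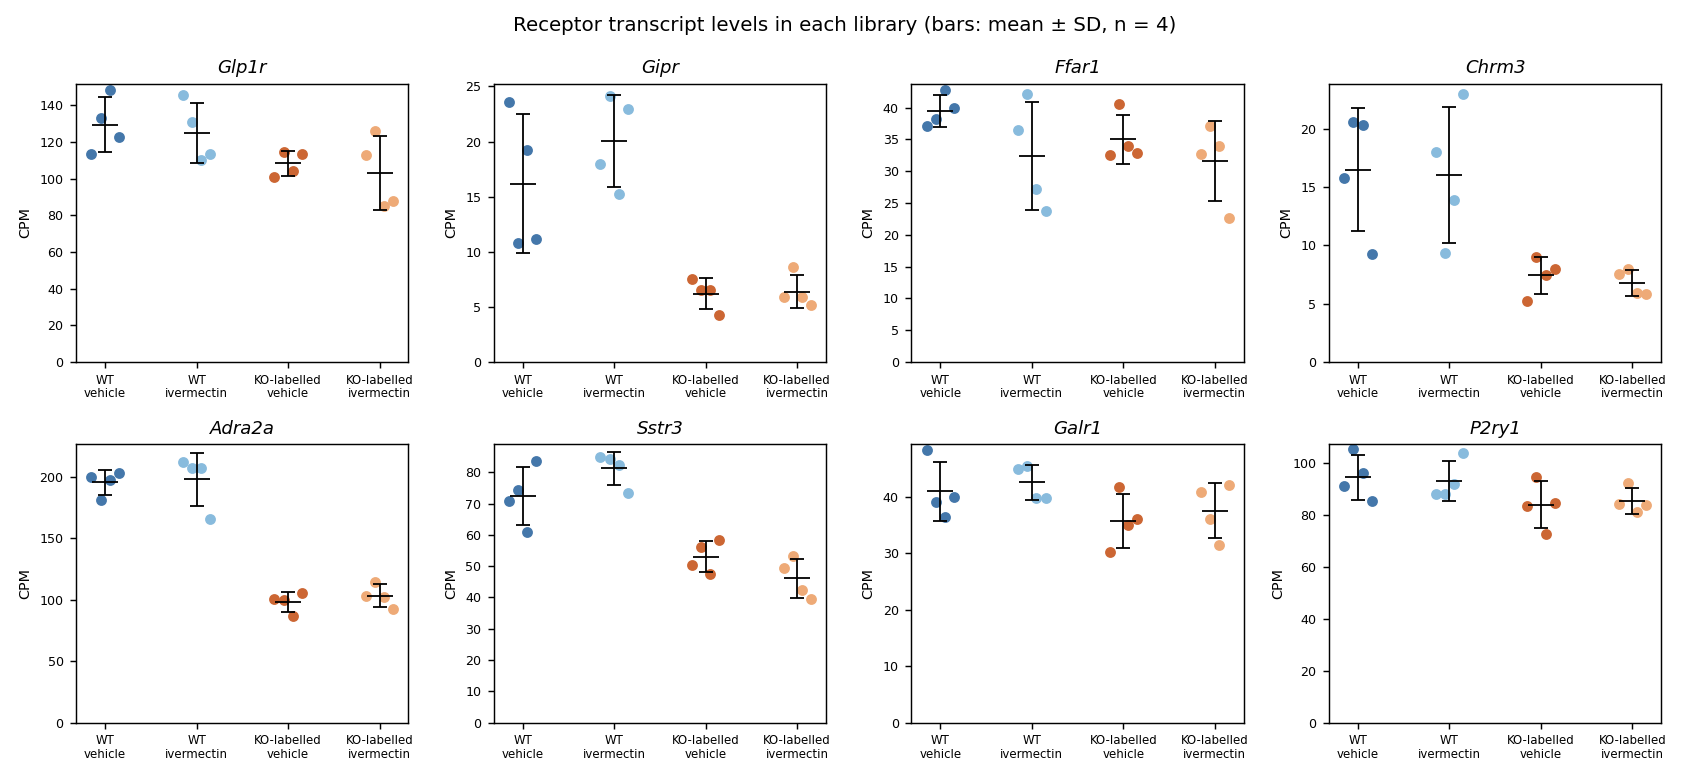
Level of the 7 tested receptors and of P2ry1 in CPM (vertical axis, from 0) in each of the 16 libraries, by group (horizontal axis). Points are libraries and bars are the mean ± SD of 4. Adra2a, Gipr, Chrm3 and Sstr3 are lower in every knockout-labelled library than in every wild-type library of the same treatment.

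The line labelled knockout had lower transcript levels of Adra2a, Gipr, Chrm3 and Sstr3 than wild-type cells, with vehicle and with ivermectin. In vehicle, 4 of the 7 tested receptors were called lower and 0 higher at an adjusted p of 0.05 (edgeR's quasi-likelihood test, Benjamini-Hochberg over 10820 genes), where 10.8% of all genes tested were called lower and 9.86% higher. Under ivermectin 5 of the 7 were called lower and 0 higher, where 13.9% of all genes were called lower and 13.9% higher. The median log2 difference over the 7 was -0.45 in vehicle and -0.82 under ivermectin, and that over all genes tested was 0.00 in both. Both receptor medians are the value of Sstr3, whose interaction with ivermectin failed the correction, so the gap between them rests on that gene. In each comparison the libraries of both lines did not overlap for 4 of the 7, Adra2a, Gipr, Chrm3 and Sstr3, where 11.4% of all genes tested in vehicle and 12.7% under ivermectin were lower without overlap. These comparisons share no library, but they compare the same lines and come from 1 fit of all 16 libraries, so they are not independent.

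Promoters of 3 of these receptors are shown because their transcripts were lower together. They are the 250 bases before the RefSeq transcript start (assembly GRCm38.p6, the mm10 build), and 8 of the 10 receptors were matched to an entry, all but Gipr and Galr1. Capitals mark a GC box (GGGCGG) or a TATA box (TATAAA), searched on both strands together with the cyclic AMP response element TGACGTCA. The Adra2a window is chr19:54045009-54045258 on the plus strand, the Chrm3 window chr13:10360804-10361053 on the minus strand, and the Sstr3 window chr15:78544346-78544595 on the minus strand.
Adra2a: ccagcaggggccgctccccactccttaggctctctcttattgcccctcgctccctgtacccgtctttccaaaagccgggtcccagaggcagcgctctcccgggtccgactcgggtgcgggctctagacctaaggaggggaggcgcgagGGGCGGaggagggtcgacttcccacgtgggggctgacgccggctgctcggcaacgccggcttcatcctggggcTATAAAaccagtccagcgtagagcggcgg
Chrm3: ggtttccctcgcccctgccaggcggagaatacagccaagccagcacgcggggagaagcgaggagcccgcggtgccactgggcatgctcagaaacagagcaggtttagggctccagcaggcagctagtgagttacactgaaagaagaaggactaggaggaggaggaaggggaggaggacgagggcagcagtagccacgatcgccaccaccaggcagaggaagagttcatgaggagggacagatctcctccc
Sstr3: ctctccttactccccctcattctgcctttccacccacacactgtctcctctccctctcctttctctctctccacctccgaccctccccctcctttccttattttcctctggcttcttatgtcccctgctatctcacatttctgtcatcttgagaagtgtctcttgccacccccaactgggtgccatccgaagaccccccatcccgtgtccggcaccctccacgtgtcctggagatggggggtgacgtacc
Adra2a had a GC box 102 bases and a TATA box 29 bases before its start. The Chrm3 and Sstr3 windows held no match to the 3 motifs. Over 32851 promoter windows of the same length, 32.7% held GGGCGG, 12.4% held TATAAA and 1.55% held TGACGTCA. None of the 8 matched receptors held TGACGTCA in its window, while Glp1r had 3 GC boxes and Gcgr had 2. GC content was 67.6% for Adra2a, 61.2% for Chrm3 and 57.2% for Sstr3, against a median of 52.4% over all windows. The 3 windows printed share none of the 3 motifs searched.

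Adra2a couples to Gi and Go and carries the restraint that adrenaline and noradrenaline place on insulin secretion. It is a gene of 1 exon at chr19:54045259-54048982. Wild-type vehicle libraries had 200, 181, 198 and 203 CPM, and the knockout-labelled vehicle libraries had 100, 99.8, 86.8 and 106 CPM. Under ivermectin the values were 212, 207, 207 and 166 CPM in wild-type and 103, 115, 103 and 92.5 CPM in knockout-labelled libraries. All 8 knockout-labelled libraries lay below all 8 wild-type libraries, and within a genotype the libraries of both treatments overlapped. Adra2a was 1.99-fold lower in vehicle (log2 -0.99, SE 0.0896, edgeR adjusted p = 1.19e-10) and 1.93-fold lower under ivermectin (log2 -0.95, SE 0.0840, adjusted p = 7.48e-11). It was the receptor with the smallest adjusted p in both comparisons, and between 694 and 1333 counts per group lay behind these values.

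Sstr3, the other receptor of this class that was called, binds somatostatin, the peptide by which δ cells restrain their neighbours. It lies at chr15:78537014-78549365. The wild-type vehicle libraries held 70.8, 74.3, 60.9 and 83.6 CPM and the knockout-labelled vehicle libraries 50.5, 56.2, 47.4 and 58.3 CPM. With ivermectin, wild-type libraries held 85.0, 84.4, 82.2 and 73.5 CPM and knockout-labelled libraries 49.3, 53.1, 42.5 and 39.5 CPM. The groups did not overlap under either treatment, though the nearest libraries in vehicle, at 60.9 and 58.3 CPM, were close. The decrease was 1.37-fold in vehicle (log2 -0.45, SE 0.119, adjusted p = 0.00495) and 1.76-fold under ivermectin (log2 -0.82, SE 0.110, adjusted p = 5.29e-07, both edgeR).

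Galr1, a Gi-coupled receptor for galanin, was not called. With vehicle its libraries ranged from 36.3 to 48.3 CPM in wild-type and 30.2 to 41.6 CPM in knockout-labelled cells, and with ivermectin from 39.8 to 45.5 and 31.4 to 42.1 CPM. Those ranges overlapped under both treatments. The log2 difference between the lines was -0.19 in vehicle (95% interval -0.48 to 0.10, edgeR adjusted p = 0.387) and -0.19 under ivermectin (-0.44 to 0.07, adjusted p = 0.289). A decrease as large as that of Adra2a lies outside both intervals.

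Among the receptors that raise cyclic AMP, Gipr and Glp1r bind the incretins GIP and GLP-1, hormones that the gut releases after a meal. Gipr, at chr7:19156063-19170248, had 23.6, 10.8, 19.2 and 11.1 CPM in wild-type vehicle libraries and 7.55, 6.52, 6.49 and 4.24 CPM in knockout-labelled vehicle libraries. With ivermectin it had 18.0, 24.1, 15.2 and 23.0 CPM in wild-type and 5.90, 8.57, 5.88 and 5.18 CPM in knockout-labelled libraries. Every knockout-labelled library lay below every wild-type library, but wild-type vehicle libraries fell into a pair near 11 CPM and a pair near or above 19 CPM. Gipr was 2.55-fold lower in vehicle (log2 -1.35, SE 0.293, adjusted p = 0.000749) and 3.09-fold lower under ivermectin (log2 -1.63, SE 0.256, adjusted p = 7.88e-06, both edgeR). The values rest on 62 counts against 47 in vehicle and 133 against 43 under ivermectin, from libraries of different totals. The size of this difference is loosely bounded: the 95% interval in vehicle ran from -1.94 to -0.75 on the log2 scale.

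Glp1r, the receptor for GLP-1 and the target of GLP-1 drugs, differed little between the lines. Its wild-type vehicle libraries had 114, 133, 149 and 123 CPM and the knockout-labelled vehicle libraries 101, 114, 104 and 113 CPM. Ivermectin-treated wild-type libraries had 145, 131, 110 and 113 CPM, and their knockout-labelled counterparts 113, 126, 84.9 and 87.98 CPM. The groups overlapped under both treatments. The difference was 1.19-fold in vehicle (log2 -0.26, SE 0.111, adjusted p = 0.0984) and 1.22-fold under ivermectin (log2 -0.28, SE 0.104, adjusted p = 0.0396, both edgeR), so that the call held under ivermectin alone. That call was lost with DESeq2 (adjusted p = 0.0725) and on leaving out wild-type ivermectin replicate 1 (0.224) or 2 (0.0966) or knockout-labelled ivermectin replicate 3 (0.177) or 4 (0.158). Fitted on the 8 libraries compared alone, the ivermectin call was lost (0.0550) and the vehicle comparison passed (0.0389). A difference as large as that of Gipr lies outside both intervals, whose lower ends are -0.48 and -0.49 on the log2 scale.

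The pair of Gq-coupled receptors that could be tested differed from each other. Chrm3 carries the effect of acetylcholine from parasympathetic nerves on the β cell, and lies at chr13:9875486-10361062. Wild-type vehicle libraries had 15.7, 20.5, 20.3 and 9.29 CPM and knockout-labelled vehicle libraries 5.23, 9.03, 7.48 and 7.95 CPM. Under ivermectin, wild-type libraries had 18.0, 9.32, 13.9 and 23.0 CPM and knockout-labelled libraries 7.51, 7.998, 5.88 and 5.82 CPM. The groups did not overlap, but wild-type vehicle replicate 4, at 10 counts, stood next to the highest knockout-labelled library, at 18 counts in a larger library. Chrm3 was 2.17-fold lower in vehicle (log2 -1.12, SE 0.293, adjusted p = 0.00501) and 2.28-fold lower under ivermectin (log2 -1.19, SE 0.277, adjusted p = 0.00135, both edgeR).

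Ffar1, which couples long-chain fatty acids to Gq, was not called. It had 37.1 to 42.8 CPM in wild-type vehicle and 32.5 to 40.6 CPM in knockout-labelled vehicle libraries. With ivermectin the libraries ran from 23.7 to 42.2 CPM in wild type and from 22.6 to 37.1 CPM in the line labelled knockout. All of these ranges overlapped. The log2 difference between the lines was -0.17 in vehicle (95% interval -0.51 to 0.16, edgeR adjusted p = 0.505) and -0.06 under ivermectin (-0.38 to 0.25, adjusted p = 0.799). Decreases as large as the fitted values of Chrm3 lie outside both intervals.

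**Figure D2:**
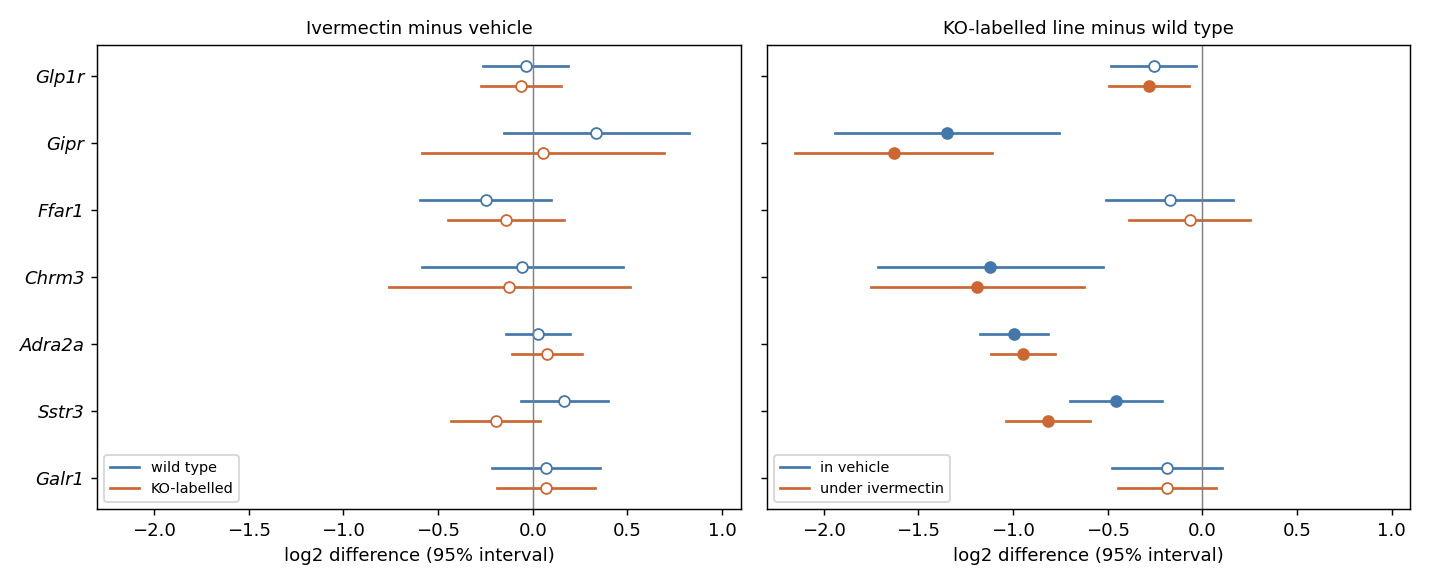
Log2 differences of the 7 tested receptors with 95% intervals (horizontal axis), ivermectin minus vehicle on the left and the line labelled knockout minus wild type on the right. Filled points have an adjusted p under 0.05: none on the left, 4 in vehicle and 5 under ivermectin on the right.

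Values of other transcripts moved with the genotype comparison in vehicle. Of 21 hepatocyte genes tested, 20 were called lower and 1 higher in the line labelled knockout in vehicle, and 2 lower and 1 higher under ivermectin. For ivermectin in wild-type cells 18 of the 21 were called lower, among the 65 genes called there in all, and in the interaction 10 were called higher, among 24 in all. The list's summed level was 1336 to 2808 CPM in wild-type vehicle and 812 to 1064 CPM in knockout-labelled vehicle libraries. With ivermectin it was 838 to 1015 CPM in wild-type and 933 to 1175 CPM in knockout-labelled libraries. Outside wild-type vehicle most of this sum was Ttr, which is also among the α-cell markers below. Ttr was at 747 to 937 CPM in knockout-labelled vehicle and 830 to 885 CPM in knockout-labelled ivermectin libraries. In wild-type libraries it was at 562 to 661 and 551 to 631 CPM, so the overlap of the sums under ivermectin includes a gene that was higher in the line labelled knockout. In vehicle Alb did not overlap between the lines, at 328 to 923 CPM in wild-type and 17.1 to 52.3 CPM in knockout-labelled libraries. A fit with Alb as a covariate can therefore hardly separate it from the line there, and a lost call does not show its cause. With that covariate, 1 receptor rather than 4 was called in vehicle, Adra2a (log2 -0.95, edgeR adjusted p = 0.00240). Adjusted p-values became 0.233 for Gipr, 0.385 for Chrm3 and 0.439 for Sstr3, with log2 differences of -1.37, -1.09 and -0.40. Under ivermectin Alb overlapped between the lines, at 57.7 to 172 CPM in wild-type and 28.0 to 144 CPM in knockout-labelled libraries. There all 4 stayed called with the same covariate, with Glp1r at an edgeR adjusted p of 0.0556.

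Markers of other islet cell types also differed between the lines. The 6 δ-cell markers summed to 285 to 338 CPM in wild-type vehicle and 71.8 to 92.4 CPM in knockout-labelled vehicle libraries, with 272 to 313 and 71.4 to 95.2 CPM under ivermectin. Sst made up most of that difference: the other 5 summed to 71.9 to 106 against 57.2 to 73.5 CPM in vehicle and to 61.4 to 69.8 against 56.7 to 78.7 CPM under ivermectin, ranges that overlapped. The 8 α-cell markers ran the other way, from 1169 to 1319 in wild-type and from 1254 to 1379 CPM in knockout-labelled vehicle libraries, which overlapped, and from 1165 to 1232 against 1296 to 1335 CPM under ivermectin, which did not. Within the α-cell list Ttr, the transthyretin gene, was at 562 to 661 against 747 to 937 CPM in vehicle, while the other 7 summed to 607 to 660 against 442 to 507 CPM. The 4 pancreatic polypeptide-cell markers summed to 386 to 418 against 299 to 345 CPM in vehicle, nearly all of it Etv1, and the 5 neuronal markers to 309 to 356 against 258 to 294 CPM. The summed β-cell list did not separate the lines, at 32656 to 37004 CPM in wild-type vehicle and 32169 to 37165 CPM in knockout-labelled vehicle libraries, but its members moved both ways. Of 15 tested, 3 (20%) were called lower and 3 (20%) higher in vehicle, against 10.8% and 9.86% of all genes tested. Under ivermectin 5 (33.3%) were called lower and 3 (20%) higher, against 13.9% each. Iapp, which encodes the amyloid peptide released with insulin, was at 5103 to 5819 against 6689 to 7426 CPM in vehicle and 5257 to 5930 against 7277 to 8041 CPM under ivermectin, without overlap. The 7 acinar markers summed to at most 1.26 CPM in any library. The 6 fibroblast markers summed to 8.60 to 11.2 CPM in wild-type vehicle and 2.02 to 5.74 CPM in knockout-labelled vehicle libraries, without overlap. Under ivermectin they summed to 2.20 to 6.09 against 2.54 to 5.69 CPM, which overlapped, so this difference was confined to vehicle. The part of these lists in the receptor differences was not tested, and in bulk RNA fewer cells of a kind and less RNA per cell cannot be told apart.

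Ivermectin changed none of the 7 tested receptors detectably within 30 min. In wild-type cells 0 of 7 were called, and 0 had an unadjusted p under 0.05 (edgeR), where 0.601% of all genes tested were called. In the line labelled knockout 0 of 7 were called and 0 had an unadjusted p under 0.05, where 0% of all genes were called and 820 of 10820 had an unadjusted p under 0.05. DESeq2 called 0 receptors in each line as well. The largest shift in wild-type cells was that of Gipr, from 16.2 ± 6.31 to 20.1 ± 4.18 CPM (SD, n = 4), with a log2 difference of 0.34 and a 95% interval of -0.15 to 0.83. Glp1r went from 129 ± 15.0 to 125 ± 16.5 CPM (log2 -0.04, interval -0.26 to 0.19), and Adra2a from 196 ± 10.02 to 198 ± 21.6 CPM (log2 0.03, interval -0.14 to 0.20). Over the 7 receptors the intervals reached from -0.59 to 0.83 in wild-type cells and from -0.76 to 0.70 in the line labelled knockout, the widest belonging to the low receptors Gipr and Chrm3. For Adra2a, the receptor with the most counts over the 16 libraries, the 95% interval of the fold ran from 0.908 to 1.15 in wild-type cells and from 0.929 to 1.20 in the line labelled knockout. For Gipr it ran from 0.899 to 1.77 and from 0.666 to 1.62, so that changes within these bounds were not detectable at this depth.

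The response to ivermectin was not found to depend on the genotype label for any of the receptors. In the interaction of genotype and treatment 0 of 7 were called, where 0.222% of all genes tested were called (edgeR), and DESeq2 called 0 as well. In edgeR 1 of 7 had an unadjusted p under 0.05, as did 553 of all 10820 genes tested. That 1 was Sstr3, which stood at 72.4 ± 9.37 CPM with vehicle and 81.3 ± 5.32 with ivermectin in wild-type cells, and at 53.1 ± 5.01 and 46.1 ± 6.25 CPM in the line labelled knockout (SD, n = 4). The log2 interaction was -0.36 (SE 0.162, adjusted p = 0.962 in edgeR), so it failed the correction over all genes.

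The 3 receptors too low to test were Casr, Gcgr and Gpr119. Casr, the calcium-sensing receptor, had 4, 4, 4 and 7 counts in wild-type vehicle libraries and 11, 10, 3 and 4 in wild-type ivermectin libraries. The line labelled knockout had 3, 2, 4 and 3 counts with vehicle and 1, 1, 1 and 3 with ivermectin, although its vehicle libraries were the larger. Pooled over 4 libraries this was 4.87 against 1.57 CPM in vehicle and 4.21 against 0.881 CPM under ivermectin. With no filter on low counts Casr passed the threshold in both comparisons of the lines (log2 -1.54, adjusted p = 0.0412, and log2 -2.11, adjusted p = 0.00412, edgeR), on group sums of 19 against 12 and 28 against 6 counts.

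Gcgr, the glucagon receptor and a Gs-coupled receptor that is abundant in hepatocytes, had 2, 1, 3 and 0 counts in wild-type vehicle and 0 in each of the knockout-labelled vehicle libraries. Wild-type ivermectin libraries had 3, 1, 0 and 0 counts, and knockout-labelled ivermectin libraries 1, 0, 0 and 0. A count of 0 over the knockout-labelled vehicle group allows up to 0.392 CPM, taking 3 counts over the group as the limit. With no filter Gcgr passed in vehicle (adjusted p = 0.0153) and not under ivermectin (adjusted p = 0.485, both edgeR), on 6 against 0 and 4 against 1 counts. In the vehicle comparison the hepatocyte genes given above moved with it, and their part was not tested.

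Gpr119, a Gs-coupled receptor for lipid amides, had 2, 3, 1 and 4 counts in all over the wild-type vehicle, wild-type ivermectin, knockout-labelled vehicle and knockout-labelled ivermectin groups. No library held more than 2. Pooled levels from 0.131 to 0.588 CPM were close to the 0.392 to 0.769 CPM that 3 counts over a group are worth, so Gpr119 was at or near the limit of detection in every group. These limits and intervals cover counting error only, since amplified reads without molecular identifiers are not independent molecules.

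**Figure D3:**
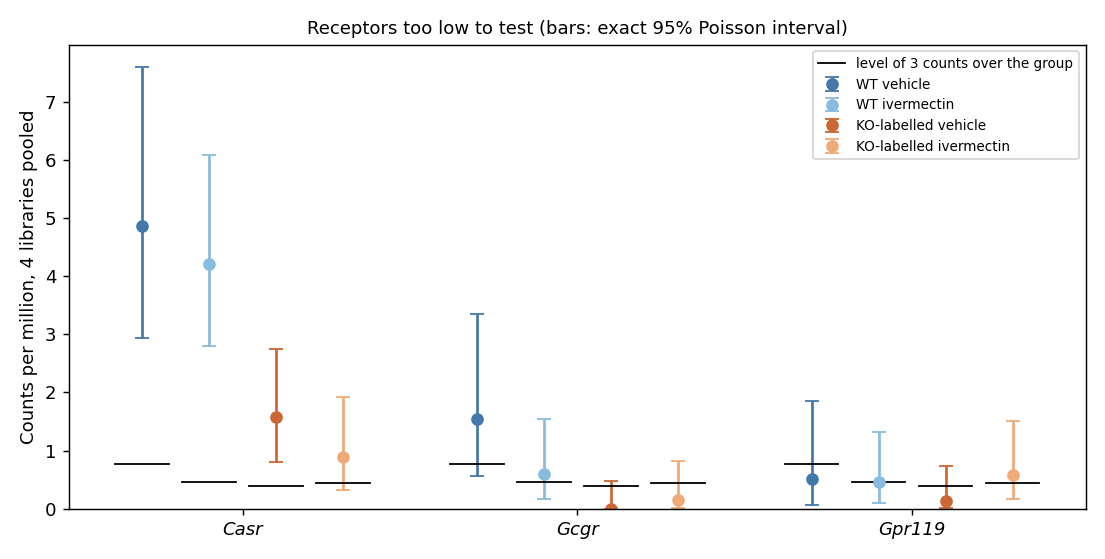
Level of Casr, Gcgr and Gpr119 in CPM over the 4 pooled libraries of each group (vertical axis), with exact 95% Poisson intervals as bars and the level of 3 counts over the group as a short line. Casr lies above that line in all 4 groups and at 4.87 and 4.21 CPM in the wild-type groups, whereas Gpr119 lies near it throughout.

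The genes that carry a receptor's signal onward were then compared between the lines, list by list. Of 109 tested genes in these lists, 0 were called for ivermectin in either line or for the interaction, by edgeR or by DESeq2, and 5, 5 and 6 had an unadjusted p under 0.05 in edgeR, as did 563, 820 and 553 of all 10820 genes. Their counts are read against the shares of all genes given above, 10.8% lower and 9.86% higher in vehicle and 13.9% in each direction under ivermectin. Among 18 tested G protein subunits, of 26 listed, 6 (33.3%) were called lower and 0 higher in the line labelled knockout in vehicle, and 5 (27.8%) lower and 0 higher under ivermectin. Gnas, which encodes the α subunit of Gs, went from 4041 ± 127 to 2992 ± 63.8 CPM in vehicle (SD, n = 4, log2 -0.43, edgeR adjusted p = 8.20e-10) and by -0.44 on the log2 scale under ivermectin. Gnao1, the α subunit of Go, was lower by 0.42 and 0.41 in log2, the latter under ivermectin, and Gnb1, a β subunit, fell by 0.30 and 0.24. Subunits of both the stimulating and the restraining class were among those that fell.

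Enzymes that make and break down cyclic AMP numbered 14 tested of 26. In vehicle 3 (21.4%, against 10.8% of all genes) were called lower and 1 (7.14%, against 9.86%) higher, and under ivermectin 6 (42.9%) lower and 1 (7.14%) higher, against 13.9% each. Pde4b, a cyclic AMP phosphodiesterase, went from 135 ± 11.96 to 64.1 ± 11.0 CPM in vehicle and from 134 ± 13.7 to 62.8 ± 7.11 CPM under ivermectin (SD, n = 4), and its libraries did not overlap. The log2 differences were -1.06 and -1.10, with adjusted p-values of 3.17e-09 and 3.33e-10 (edgeR). Adcy1, a calcium-stimulated adenylyl cyclase, was the 1 called higher, at log2 0.36 and 0.34. Pde10a, which degrades cyclic AMP and cyclic GMP, fell by 0.32 in vehicle and 0.49 under ivermectin on the log2 scale, and lost the vehicle call with DESeq2 (adjusted p = 0.0734). Pde8a was called lower under ivermectin (log2 -0.90) and was at 0.06 in vehicle.

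Among effectors of cyclic AMP, 22 of 25 were tested, with 7 (31.8%, against 10.8% of all genes) lower and 0 higher in vehicle and 7 (31.8%) lower and 1 (4.55%) higher under ivermectin, against 13.9% each. Sik1, a kinase that is induced by cyclic AMP and restrains CREB coactivators, had 9.72 ± 1.14 CPM in wild-type and 5.27 ± 1.296 CPM in knockout-labelled vehicle libraries. The call in vehicle was lost with DESeq2 (adjusted p = 0.116) and with the replicate block in edgeR (0.0548). Under ivermectin Sik1 had 14.5 ± 3.89 and 3.63 ± 0.744 CPM (SD, n = 4, log2 -1.95, edgeR adjusted p = 3.64e-06). The anchoring protein gene Akap13 fell by 0.84 and 0.62, and the regulatory subunit genes of protein kinase A Prkar1a and Prkar2b fell by 0.24 and 0.55 in vehicle, all on the log2 scale. Prkar1b, another regulatory subunit, rose under ivermectin (log2 0.39) and stood at 0.21 with an adjusted p of 0.0637 in vehicle. Crtc1, a CREB coactivator, fell by 0.41 in vehicle and 0.49 under ivermectin.

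Of 24 genes that switch receptors off or sort them, 18 were tested, with 3 (16.7%, against 10.8% of all genes) lower and 0 higher in vehicle and 4 (22.2%) lower and 2 (11.1%) higher under ivermectin, against 13.9% each. These shares are near those of all genes. Grk2, listed as Adrbk1, encodes a kinase that desensitises active receptors and fell by 0.40 in vehicle and 0.46 under ivermectin on the log2 scale. The sorting protein gene Gprasp1 fell by 0.29 and 0.28. Rgs19 and Rgs10, which speed the shut-off of Gi and related subunits, were called higher under ivermectin (log2 0.82 and 0.63) on means of at most 15.9 CPM. Both lost the call with DESeq2, at adjusted p-values of 0.0798 and 0.107, and on thinning every library to the smallest total, where their log2 differences were 0.14 and 0.57 (edgeR adjusted p = 0.821 and 0.203).

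Among 24 tested of 99 other G protein-coupled receptors of islets, 4 (16.7%, against 10.8% of all genes) were lower and 1 (4.17%, against 9.86%) higher in vehicle, and 7 (29.2%) lower and 1 (4.17%) higher under ivermectin, against 13.9% each. In vehicle these shares are near those of all genes. The adhesion receptor Adgrg1, listed as Gpr56, went from 50.9 ± 6.36 to 8.86 ± 2.30 CPM in vehicle (SD, n = 4, log2 -2.50, edgeR adjusted p = 7.50e-13) and by -2.40 in log2 under ivermectin. Cnr1, the cannabinoid receptor that couples to Gi, fell by 1.11 and 0.92, and Gabbr2, a subunit of the metabotropic GABA receptor, fell by 0.58 and 0.63. Gprc5b, an orphan receptor, was the 1 that was higher, at log2 0.44 and 0.37, and lost the call with DESeq2 in both comparisons (adjusted p = 0.0621 and 0.0839). The median log2 difference of the 24 was -0.12 in vehicle and -0.06 under ivermectin, beside -0.45 and -0.82 for the 7 receptors.

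**Figure D4:**
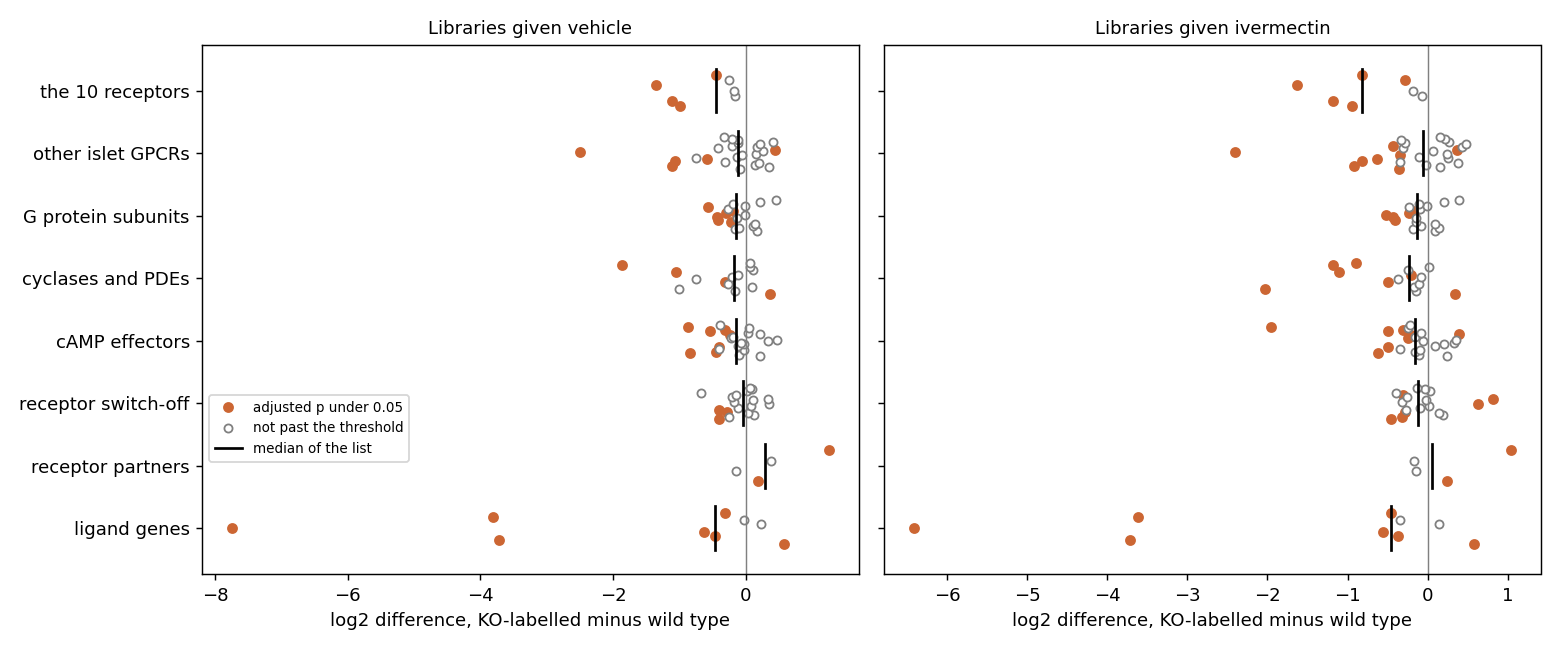
Log2 difference between the line labelled knockout and wild type (horizontal axis) for each tested gene of 8 lists (vertical axis), in vehicle on the left and under ivermectin on the right, on separate scales. Filled points have an adjusted p under 0.05 and vertical bars are list medians. The 7 receptors have medians of -0.45 and -0.82, and the ligand genes hold the points farthest to the left.

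The sources of the ligands and the accessory proteins of receptors also differed between the lines. Of 18 ligand genes, 9 were tested, with 6 (66.7%) lower and 1 (11.1%) higher in each comparison, against 10.8% and 9.86% of all genes in vehicle and 13.9% each under ivermectin. Sst, which encodes the ligand of Sstr3, had 200 to 233 CPM in wild-type vehicle and 12.8 to 19.0 CPM in knockout-labelled vehicle libraries. It was 14.2-fold lower in the line labelled knockout with vehicle (95% counting interval 11.7 to 17.3) and 12.4-fold lower under ivermectin (10.4 to 15.1), with edgeR adjusted p-values of 2.92e-23 and 1.65e-23. Gal, the galanin gene, had 31 counts against 4 in vehicle and 58 against 4 under ivermectin, ratios of 15.2 (5.37 to 59.2) and 14.8 (5.49 to 56.3). Gal lay under the expression minimum of the naming rule and was picked with its values known. The receptor of each peptide moved less than the peptide: Sstr3 by 1.37-fold and 1.76-fold, and Galr1 was not called.

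Pdyn, the precursor of dynorphins, had 67 counts in wild-type vehicle and 0 in knockout-labelled vehicle libraries. The lower end of the 95% counting interval of the ratio was 34.6, and with the knockout-labelled group set at 3 counts the ratio would be 43.8. Under ivermectin it had 129 counts against 1, a ratio of 132 with a counting interval of 23.3 to 5252. Npy, the neuropeptide Y gene, fell by 0.63 and 0.56 on the log2 scale, and Gcg, whose product is processed to glucagon and GLP-1, fell by 0.46 and 0.37. Th and Ddc, which encode successive enzymes of catecholamine synthesis, went opposite ways: Th fell by 0.31 and 0.46, and Ddc was higher by log2 0.58 in both. Of 8 receptor partners 4 were tested, with 2 higher and 0 lower in each comparison, where 9.86% and 13.9% of all genes were higher: Ramp1, which modifies calcitonin-family receptors, at log2 1.25 and 1.04, and Atp6ap2 at 0.19 and 0.24.

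In vehicle, many of the list calls did not stand with Alb as a covariate. Alb separated the lines there, so a lost call does not show what it rested on. Of 27 named list genes called in vehicle, 8 stayed called: Gal, Gnao1, Gnas, Gpr56, Npy, Pde4b, Pdyn and Sst. Of the 19 that lost the call, 17 kept a log2 difference within 1.5 times of that without the covariate, such as Cnr1 at -1.21, Gnb1 at -0.30 and Gcg at -0.43. The exceptions were Adcy1, from 0.36 to 0.059, and Pde10a, from -0.32 to -0.097. Rgs19 lost its call under ivermectin with the same covariate (log2 0.73, adjusted p = 0.0692). On thinning, the vehicle calls of Pde10a (0.216), Prkar2b (0.0883), Sik1 (0.151) and Th (0.0846) were lost, and under ivermectin those of Pde10a (0.0656), Gprasp1 (0.0941) and Gprc5b (0.374). Single libraries decided some calls as well. In vehicle, Adcy1 (adjusted p = 0.0616) and Crtc1 (0.0826) lost theirs without wild-type replicate 3, Prkar2b (0.0524), Th (0.0932) and Pde10a (0.210) without wild-type replicate 4, and Pde10a also without knockout-labelled replicate 3 (0.0521). Atp6ap2 lost it without wild-type replicate 2, 3 or 4 (0.0576 to 0.0745), Gprc5b without wild-type replicate 2 (0.0774), and Sik1 in 7 of the 8 cases (0.0624 to 0.136). Under ivermectin the calls of Gprc5b, Rgs19 and Rgs10 were lost without wild-type replicate 2 (0.0821), without wild-type replicate 2 or 3 (0.0759 and 0.0773) and without wild-type replicate 1 or 3 (0.0920 and 0.0899). The same 3 calls were lost without knockout-labelled replicate 2 (0.0764 for Gprc5b and 0.158 for Rgs19) and without replicate 1, 3 or 4 for Rgs10 (0.0588 to 0.0865). All adjusted p-values are edgeR's.

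**Figure D5:**
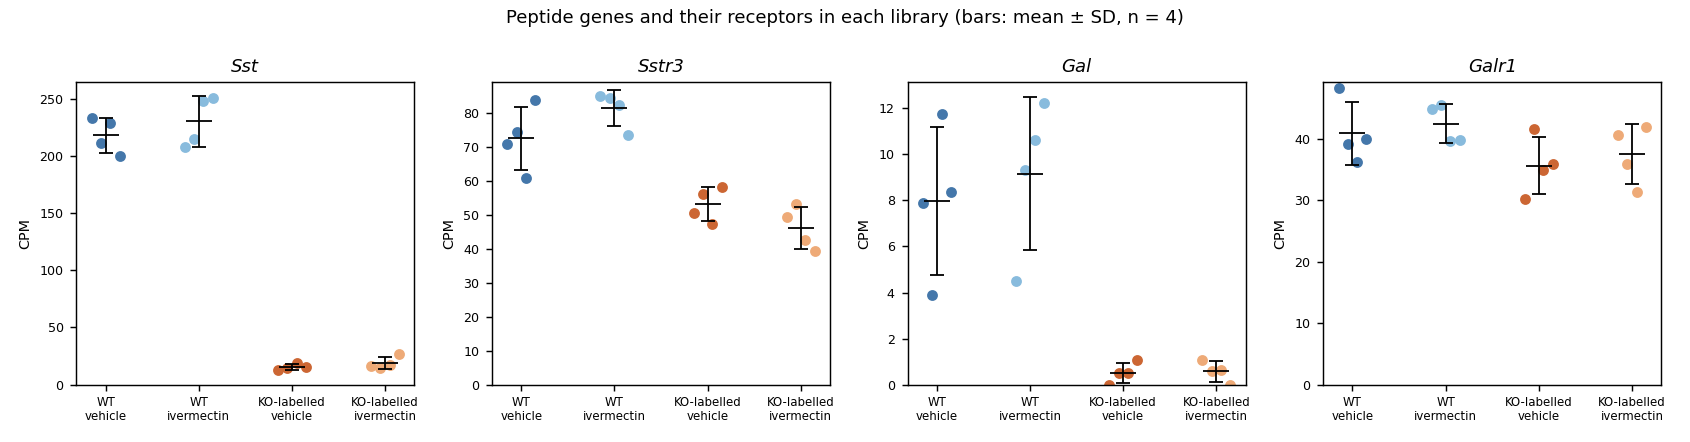
Level in CPM (vertical axes, from 0) of the peptide genes Sst and Gal and of their receptors Sstr3 and Galr1 in each of the 16 libraries, by group. Points are libraries and bars are the mean ± SD of 4. Sst lies between 200 and 250 CPM in every wild-type library and at 26.5 CPM or less in every library labelled knockout, and Galr1 overlaps between the lines.

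The genes whose log2 CPM followed the called receptors most closely over the 16 libraries were found for Adra2a, Gipr and Sstr3, as a description. The 16 libraries fall into 2 lines and 2 treatments and differ in depth. For Adra2a they included Ambp (Pearson r = 0.979) and Nkx2-4 (0.9754). Those of Gipr were Aard (0.957), Usp18 (0.953) and Tra2b (0.949), and those of Sstr3 were Ddr1 (0.946), Sez6l (0.944) and Yes1 (0.940). After each group's mean was removed, r lay between 0.584 and 0.861 for these 8 genes. They were picked by their r over the same libraries, so these values may be raised by the choice. Ambp is also in the hepatocyte list. Adra2a itself was at 196 and 198 CPM in wild-type vehicle and ivermectin libraries, where Alb was at 579 and 101 CPM.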

How the data were processed

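Polyadenylated RNA of 16 mouse libraries was read from both ends for 42 nucleotides, from 125 ng of RNA and 11 cycles of amplification, per the labels' protocols. The submitters' processing notes name bcl2fastq, STAR 2.7.2b, RSEM 1.3.3, DESeq2 1.32.0 and the mm10 build. The authors deposited a table of whole-number counts for 23329 genes, and 100% of its values equalled the expected count of RSEM, rounded down. The authors also deposited, per the file headers, RSEM tables for each library with expected counts, TPM and FPKM. Counts were used for all tests, TPM for the order of receptors, and rounded expected counts and FPKM for alternatives. The table has 0 columns of other samples. The deposited normalized table and the human single-cell files were not used.

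Tests used edgeR 4.0.16 (limma 3.58.1, R 4.3.3): TMM factors, filterByExpr at its defaults (minimum count 10, minimum total 15), leaving 10820 genes, 1 mean per group over all 16 libraries, glmQLFit and glmQLFTest, two-sided, with Benjamini-Hochberg adjustment over all genes tested and a threshold of 0.05. CPM values use TMM factors with the following exceptions, which use library totals. These are pooled CPM, the limits of 3 counts, the summed levels of marker lists, and the ranges of Ttr and Iapp set beside those sums. Pooled counts carry exact 95% Poisson intervals. A count of 3 is worth 1.49 to 3.36 CPM in a library. Chi-squared per degree of freedom between replicates was 1.16 to 6.85 over all genes, above counting noise, and at most 2.18 without wild-type ivermectin replicate 4, and 0 pairs of libraries were identical. The code was tested on simulated data.

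The 10 receptors and all lists were chosen with earlier results of these data known. Genes named are the 10 receptors, P2ry1, defining markers, up to 3 higher and 3 lower called genes of each list with a mean log2 CPM of at least 3 and the smallest adjusted p, and the 3 genes best correlated with each of the 3 most strongly called receptors. Not every such gene is named, 1 of the correlated genes is not reported here, and Gal, Gcg, Th and Rn45s were added after values were seen. Alternatives were DESeq2 1.42.0, relative log expression factors, no filter, a mean of at least 50 counts, RSEM expected counts, the 8 libraries compared, a replicate block, Alb as a covariate, hepatocyte genes left out, thinning to the smallest library and leaving out each library.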

Additional observations from a re-analysis of the deposited data

Results flagged for a closer look

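Adra2a in wild-type ivermectin replicate 4 was at 166.1 CPM, a sample far from the other 3 of its group, which lay between 207.2 and 212.4 CPM. The same library held 2.99% of its counts in Rn45s. The sample lies above every library labelled knockout. Among 28 groups of 4 examined, 1 was set apart in this way, and chance at 1 in 20 gives about 1.4.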

How the results depend on the processing

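In vehicle, the 4 receptors called lower in the line labelled knockout became 2 with a mean of at least 50 counts, where Gipr and Chrm3 were not tested. They became 1 with Alb as a covariate, which separated the lines there, so a lost call does not show its cause. Under ivermectin the 5 became 3 with a mean of at least 50 counts. Leaving out each library gave 4 to 4 receptors in vehicle and 4 to 5 under ivermectin, 28 to 35 called list genes in place of 34 in vehicle, and 8 to 10 receptors at their place in the TPM order. With Alb as a covariate 9 list genes were called, while 17 of the 19 named genes that lost the call kept a log2 difference within 1.5 times of the first. No filter gave 6 called receptors in each comparison, adding Casr to both and Gcgr in vehicle. Thinning turned the sign of 3 values of 2 receptors that were not called: Galr1 for ivermectin, at 0.07 in both lines, became -0.13 in wild type and -0.23 in the line labelled knockout, and Ffar1 between the lines under ivermectin went from -0.06 to 0.081. Between the lines in vehicle, Rgs19, at 0.34 and not called, became -0.079 with Alb as a covariate, and Pde8a, at 0.06, ranged from -0.036 to 0.20 on leaving out a library. Leaving out a library turned other values near 0: for ivermectin in wild type Glp1r ranged from -0.12 to 0.036, Chrm3 from -0.27 to 0.15 and Adra2a from -0.0068 to 0.099, in the line labelled knockout Glp1r from -0.17 to 0.018 and Gipr from -0.12 to 0.15, and Ffar1 between the lines under ivermectin from -0.17 to 0.086. The cause was not tested.

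Replicate numbers showed little sign of pairing the libraries. Deviations of same-numbered libraries correlated with a median r of 0.0216 (2 of 24 pairs over 0.1, the highest at 0.145). For different numbers the median was -0.00484 (1 of 72 pairs over 0.1). With the replicate block 4 receptors were called in vehicle and 5 under ivermectin, 0 for ivermectin in either line and 0 for the interaction. Among the genes named, Sik1 lost its vehicle call with the block. Over all genes the block gave 47 calls for the interaction in place of 24. All genes called between the lines in vehicle were 2240 as fitted, 1694 with DESeq2 and 391 with Alb as a covariate, and for ivermectin in wild type they were 65, 51 and 1. Depth limits Casr, Gcgr and Gpr119, with 0 to 11 counts a library.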
